A study of Mus musculus with 2 samples.

Results

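The spots described here were those in 2 coronal brain sections with the highest score for Baiap3, Hap1, Irs4, Arhgap36, Dlk1 and Gal, 6 genes used to mark the medial hypothalamus. A spot is a small printed area of a Visium slide that captures the polyadenylated RNA of the tissue lying over it, and it can hold several cells of different types or parts of them. For every spot with at least 2000 unique molecular identifiers (UMIs, tags that count each captured RNA molecule once), the mean of ln(1 + UMIs per 10000) over those 6 genes was taken, and the same mean over Oxt, Avp, Pmch and Hcrt was subtracted. The 120 highest scores of each section were kept. The 240 members were thus chosen from 7173 spots of that depth and 7890 spots in all. The remaining 6933 spots of that depth were the background against which all other genes were described.

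The study addressed gene expression in the dorsal hippocampus after recall of a place avoidance memory, and the members were taken from the same coronal sections. Both mice were adult males on a C57BL/6 background with the genotype ArcCreERT2::eYFPflx, in which a tamoxifen-dependent Cre driven by Arc, an immediate early gene, can switch on a yellow fluorescent reporter. The mouse labelled trained had learned active place avoidance, in which it avoids an unmarked shock zone on a rotating arena, and the mouse labelled untrained was placed in the same rotating arena with the shock off. Each group was 1 section of 1 mouse, so a difference between the sections rests on 1 mouse against 1 mouse, and training, mouse, section and level along the brain cannot be told apart. Spots of 1 section were not treated as replicates, and no p-value was computed. Every interval below is a 95% interval that covers counting error only.

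The hypothalamus lies at the base of the forebrain around the third ventricle and controls feeding, growth, stress, temperature and reproduction. Its medial nuclei are rich in small neurons that make neuropeptides, short signalling proteins stored in dense granules, and most of its neurons release GABA or glutamate beside them. Oxytocin and vasopressin (Oxt, Avp) mark the large secretory neurons of the paraventricular and supraoptic nuclei, and melanin-concentrating hormone and hypocretin (Pmch, Hcrt) mark neurons of the lateral hypothalamus. Imprinted genes, which are read from only the maternal or only the paternal copy, are well known for their expression in this region.

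The members held more UMIs per spot in the untrained section. They held 920574 UMIs in the trained section (lowest 2132, median 7108 and highest 17528 per spot) and 2148402 in the untrained section (lowest 2299, median 18740 and highest 34553). The remaining spots had medians of 6584 and 14243 UMIs. Mitochondrially encoded RNA took 10.5% and 13.5% of the UMIs of the members, below the 12.3% and 16.3% of the remaining spots. Ttr, the main choroid plexus transcript, took 0.259% and 0.300% in the members against 0.550% and 1.87% in the remaining spots. The 2 sections shared 3448 spot barcodes and the 2 sets of members shared 32, as both capture areas use the same grid of 4992 barcoded positions.

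The score fell without a step at the threshold. In the trained section it was 1.241 at rank 1, 0.4616 at rank 120, 0.4616 at the next rank and 0.3143 at rank 240, and in the untrained section it was 1.406, 0.5142, 0.5137 and 0.3944 at the same ranks. The median score of the remaining spots was 0 and 0.06471. The 6 added genes were selected on, so their levels describe the rule and support nothing. In CPM (UMIs scaled to a total of 1000000) of the pooled members against the pooled remaining spots, Hap1, the partner of huntingtin, stood at 438 against 72.6 in the trained section and at 451 against 89.2 in the untrained section. Baiap3, a protein of dense-core granule release, stood at 319 against 29.5 and at 238 against 24.7. The other added genes stood at 95.6 and 30.7 CPM of Irs4 (an insulin receptor substrate), 78.2 and 67.0 of Gal (galanin), 73.9 and 88.4 of Dlk1 and 52.1 and 47.5 of Arhgap36 in the members of the trained and untrained section. Baiap3 overlaps Tsr3 on the opposite strand, and the sources used here do not state whether counting used strand.

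**Figure D1:**
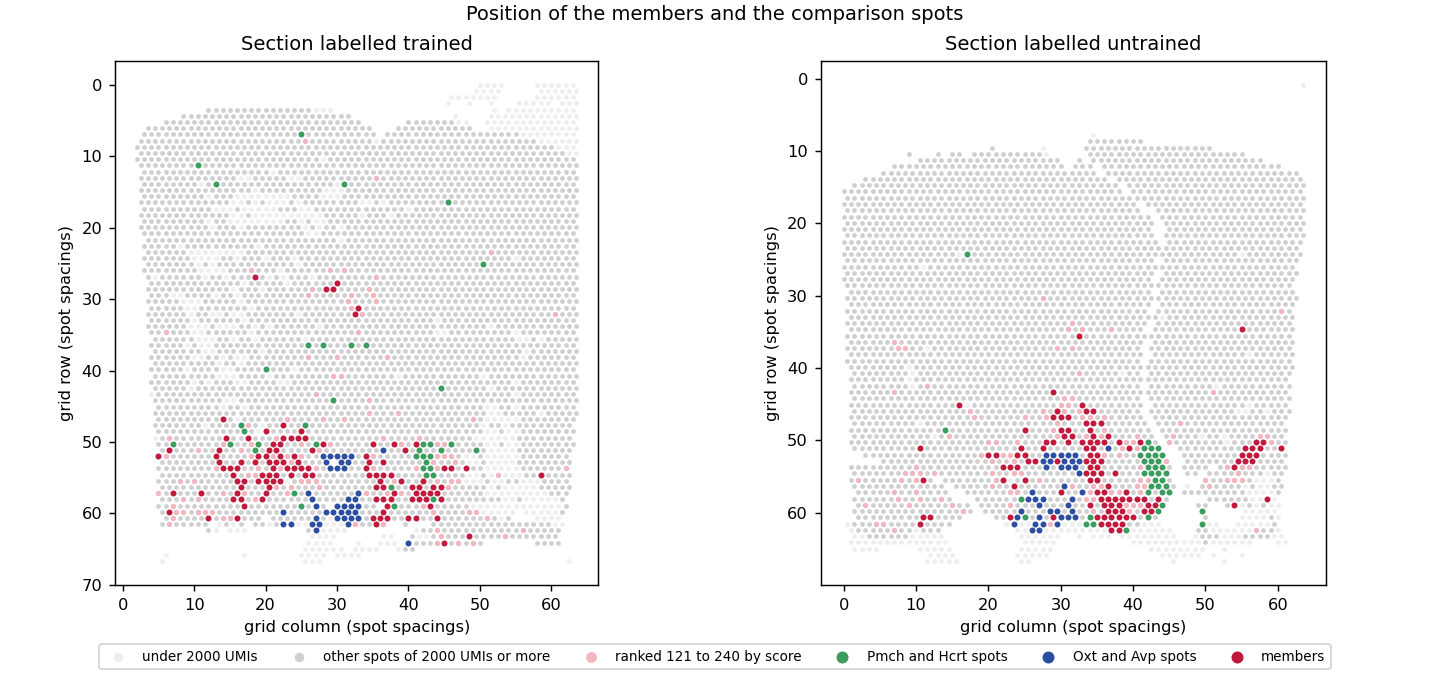
Position of the members on the spot grid of each section, with grid column and grid row in spot spacings, the 120 spots next in rank, and the 40 spots per section with the highest Pmch and Hcrt or Oxt and Avp. Most members lie in the lowest rows of both sections, on both sides of the Oxt and Avp spots in the trained section and mostly to their right in the untrained section.

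The members lay at the base of the brain, as the map of spot positions shows. Of 120 members, 114 in the trained section and 117 in the untrained section were in the lowest 33.3% of its rows. The axis was taken as the median column of the 40 spots with the most Oxt and Avp. The members lay a median of 9.75 spot spacings from it in the trained section and 6.50 in the untrained section, and a median of 7 and 5 grid steps from the nearest Oxt and Avp spot. They fell 69 to the left and 51 to the right of the axis in the trained section. In the untrained section 27 fell to the left, 91 to the right and 2 on it, so the 2 sets divided differently between the sides. Members touched each other in 94 and 98 of 120 cases, and 85 members of the trained section stood in 5 connected patches of at least 10 spots, against 70 in 3 patches in the untrained section.

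The place of the members depended on the subtracted genes. With the 6 added genes alone, 33 of 120 members of the trained section and 69 of the untrained section were kept, the median distance to the nearest Oxt and Avp spot became 2 and 3 steps, and 27 and 18 of the 120 were themselves Oxt and Avp spots. With the subtraction the median distance from the axis went from 4.75 to 9.75 spot spacings in the trained section and from 5.50 to 6.50 in the untrained section. The axis is itself set by Oxt and Avp spots, so subtracting Oxt and Avp bears on this distance by construction.

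The label was checked against genes that define single medial nuclei. Nr5a1, the factor that defines the ventromedial nucleus, was at 0 UMIs in the members of both sections, which allows up to 3.26 CPM in the trained and 1.40 CPM in the untrained members at 3 UMIs. Kiss1 (kisspeptin), Rax, Hmx2, Hmx3, Six6 and Npvf were likewise at 0 in both, and Agrp, the hunger peptide of the arcuate nucleus, had 0 and 8 UMIs. These genes were scarce in the remaining spots too, which held 2 and 3 UMIs of Nr5a1, 0 of Kiss1 in both sections and 18 and 32 of Agrp, and Agrp had a log2 ratio of 2.79 (1.39 to 3.87) in the untrained section. Pomc, the precursor of melanocortins, had 22 and 43 UMIs, with a log2 ratio of members over remaining spots of 0.53 (interval -0.184 to 1.12) and 0.96 (0.465 to 1.39). Other markers had low counts but were higher in the members. Ghrh, the growth hormone releasing hormone of the arcuate nucleus, had 7 and 23 UMIs and log2 ratios of 2.65 (1.16 to 3.76) and 3.54 (2.74 to 4.25). Otp, a hypothalamic factor, had 24 and 11 UMIs, with 2.65 (1.93 to 3.27) and 2.53 (1.39 to 3.44). Nkx2-1, a factor of the ventral hypothalamus, had 4 and 26 UMIs, with 1.09 (-0.986 to 2.36) and 3.71 (2.96 to 4.40), and Sim1 2 and 16 UMIs, with 2.21 (-1.23 to 4.02) and 4.28 (3.24 to 5.26), so in the trained section the intervals of these 2 genes spanned 0. Of the ventromedial list, Gpr149 had 8 and 7 UMIs, with 1.34 (0.0108 to 2.29) and 1.76 (0.295 to 2.81), and Fezf1 had 8 and 0 UMIs, with 3.04 (1.65 to 4.13) in the trained section. Nr5a1, Kiss1 and Agrp, which define the ventromedial and arcuate nuclei, were thus not detected or near 0 at this depth, and the spots are called here by their rule, the Baiap3 and Hap1 spots, or the members. As lists, the markers of single nuclei were thin: 3 of 7 ventromedial genes passed the minimum of 200 UMIs (medians of 0.64 and 2.33), 4 of 10 arcuate (1.23 and 0.35), 3 of 6 dorsomedial (1.34 and 0.69), 3 of 6 paraventricular and periventricular (-0.34 and 0.32) and 0 of 6 mammillary and posterior genes.

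Beside the rule, 123 of 10504 genes, or 1.17%, were at least 2-fold higher in the members than in the remaining spots of both sections. A further 216 genes, or 2.06%, were at least 2-fold lower in both. The median log2 ratio over all tested genes was 0.01 in the trained and 0.04 in the untrained section, and the ratios of the 2 sections correlated across genes with r = 0.668, a description over genes measured in the same 2 libraries.

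The promoters of Cartpt, Th, Scg2 and Peg3 are printed as examples from the leading and listed genes that were at least 2-fold higher in the members of both sections and hold the cyclic AMP response element TGACGTCA, the 8-base motif, equal to its own reverse complement, that CREB binds. They cover the 250 bases before the gene start that RefSeq gives on the minus strand of GRCm38.p6, written 5′ to 3′ with the motif in capitals.
Cartpt promoter: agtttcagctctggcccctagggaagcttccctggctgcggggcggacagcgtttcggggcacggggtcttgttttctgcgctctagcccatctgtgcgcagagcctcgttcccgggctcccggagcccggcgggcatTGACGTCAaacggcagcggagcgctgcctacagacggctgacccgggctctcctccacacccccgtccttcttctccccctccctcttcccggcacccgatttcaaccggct
Th promoter: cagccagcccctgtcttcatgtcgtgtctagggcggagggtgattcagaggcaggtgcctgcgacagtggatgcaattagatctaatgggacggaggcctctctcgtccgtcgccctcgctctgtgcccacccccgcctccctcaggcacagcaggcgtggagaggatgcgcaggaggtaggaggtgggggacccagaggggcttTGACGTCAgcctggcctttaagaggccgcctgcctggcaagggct
Scg2 promoter: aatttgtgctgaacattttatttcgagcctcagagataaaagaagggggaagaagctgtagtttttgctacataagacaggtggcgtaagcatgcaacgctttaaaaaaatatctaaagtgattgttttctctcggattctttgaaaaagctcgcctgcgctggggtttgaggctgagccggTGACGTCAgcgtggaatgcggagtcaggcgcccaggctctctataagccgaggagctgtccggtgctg
Peg3 promoter: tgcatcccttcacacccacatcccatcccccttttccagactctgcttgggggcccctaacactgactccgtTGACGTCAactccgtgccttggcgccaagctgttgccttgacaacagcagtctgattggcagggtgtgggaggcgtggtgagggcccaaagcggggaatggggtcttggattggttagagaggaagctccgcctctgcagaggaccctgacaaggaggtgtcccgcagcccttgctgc
The windows were chr13:99900684-99900933 for Cartpt, chr7:142899996-142900245 for Th, chr1:79440027-79440276 for Scg2 and chr7:6730420-6730669 for Peg3. The gene ranges of GENCODE, whose starts lie further out, hold the whole window of Cartpt and of Th and the end nearest the gene of the windows of Scg2 and Peg3. The motif began 112, 45, 68 and 178 bases before the RefSeq start. Over windows of 300 bases, from 250 before to 50 after the start, 549 of 27025 genes, or 2.03%, held it, as did 2 of the 18 leading genes matched to RefSeq, 3 of 11 granin and peptide processing genes (Chgb, Scg2 and Pcsk1), 2 of 21 neuropeptide genes (Cartpt and Sst) and 4 of 28 imprinted genes (Meg3, Peg3, Zdbf2 and Usp29). Usp29, another of the higher genes with the motif, starts close to Peg3 and is not printed. A match describes the letters of the window and is no evidence of binding.

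Among the tested genes, which had at least 200 UMIs in each section, that also had at least 20 UMIs in the members and in the remaining spots of each section, the 25 with the highest ratios in both sections were named, and AW551984 stood first. AW551984 (ENSMUSG00000038112, chr9:39587396-39604403, minus strand, 20 exons in the longest transcript, GRCm38/mm10) was at 66.3 CPM in the members and 9.53 in the remaining spots of the trained section, and at 103 and 14.7 CPM in the untrained section. Its log2 ratios were 2.81 (2.37 to 3.20) and 2.81 (2.59 to 3.03). The gene was seen in 34.2% and 74.2% of members and in 6.37% and 15.4% of remaining spots. In the 120 spots per section richest in the pyramidal neuron genes Slc17a7, Neurod6 and Tbr1, used as a comparison, 0 spots of the trained section had a UMI of it, which allows a share of spots with a UMI of up to 2.5%, and 8.33% of the untrained section did, at medians of 12426 and 22823.5 UMIs. With every spot thinned to 2000 UMIs the shares of members were 12.5% and 14.2%, closer to each other than the counted shares.

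Gpx3, a secreted glutathione peroxidase that removes peroxides, was also near the top. Gpx3 (ENSMUSG00000018339, chr11:54902453-54910377, plus strand, 5 exons) was at 172 CPM in the members and 30.3 in the remaining spots of the trained section, and at 302 and 35.7 CPM in the untrained section. The log2 ratios were 2.51 (2.25 to 2.75) and 3.08 (2.95 to 3.21). Per spot it ranged from 0 to 10.6 UMIs per 10000 with a median of 1.45 in the trained members, and had a median of 2.54 in the untrained members. The Oxt and Avp spots had 307 and 288 CPM, above the members in the trained section and near them in the untrained section. The pyramidal gene spots had 1.20 and 8.94 CPM.

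Ngb, the neuroglobin that binds oxygen in neurons, was higher by a similar factor. Ngb (ENSMUSG00000021032, chr12:87097531-87102539, minus strand, 4 exons) was at 96.7 and 15.9 CPM in the members and remaining spots of the trained section and at 114 and 14.9 CPM in the untrained section. Its log2 ratios were 2.61 (2.26 to 2.94) and 2.93 (2.72 to 3.14). Lbhd2 had log2 ratios of 2.90 and 2.70, and Glra2, the alpha 2 subunit of the glycine receptor, 2.20 and 2.41.

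Several leading genes belong to peptide signalling and secretion. Resp18, a protein of secretory granules, was at 1169.9 CPM in the trained and 1654.3 CPM in the untrained members against 322 and 335 CPM in the remaining spots, or log2 ratios of 1.86 (1.77 to 1.95) and 2.31 (2.25 to 2.36). It was present in 97.5% and 99.2% of members. Resp18 overlaps Gm28902 on the opposite strand, which bears on its count only if counting ignored strand. Pnoc, the precursor of nociceptin, had log2 ratios of 2.14 in both sections, and 1.44 in the untrained section without a patch of 12 members far from the axis. Its receptor Oprl1 had 0.90 and 1.13, under 2-fold in the trained section. Ecel1, a peptidase of neurons, had 1.83 and 2.08, the latter 1.43 without that patch, and Mrap2, the accessory protein of the melanocortin 4 receptor, 2.27 and 1.82. Gpr101, an orphan receptor linked to growth hormone excess, was at 34.8 CPM in the trained and 26.5 CPM in the untrained members, with log2 ratios of 2.38 (1.78 to 2.91) and 2.19 (1.74 to 2.59).

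The other leading genes spanned transcription, calcium binding and catecholamine synthesis. Zcchc12, a transcriptional co-activator, had log2 ratios of 2.02 and 1.87, and Rxrg, a retinoid receptor, 2.12 and 1.76. Calb2, the calcium-binding protein calretinin, was at 356 CPM in the trained and 477 CPM in the untrained members, with log2 ratios of 1.97 (1.80 to 2.13) and 1.82 (1.72 to 1.91). Th, tyrosine hydroxylase, the first enzyme of dopamine synthesis, rested on 24 and 33 UMIs, with log2 ratios of 1.75 (1.05 to 2.33) and 2.00 (1.41 to 2.51). Klhl1, Minar2, Tmie, Krt1, Tmem91, Slc7a3, Atg9b, Tmem130 and 6330403K07Rik had log2 ratios from 1.75 to 2.29 in the trained and from 1.77 to 2.08 in the untrained section. Peg10 (2.19 and 2.08) and Cartpt (1.92 and 4.35), described below, completed the group. Under the 15 alternatives that could be run on single genes, the 25 leading genes were at least 2-fold higher in both sections each time, with a lowest log2 ratio of 1.02 in the members left of the axis.

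**Figure D2:**
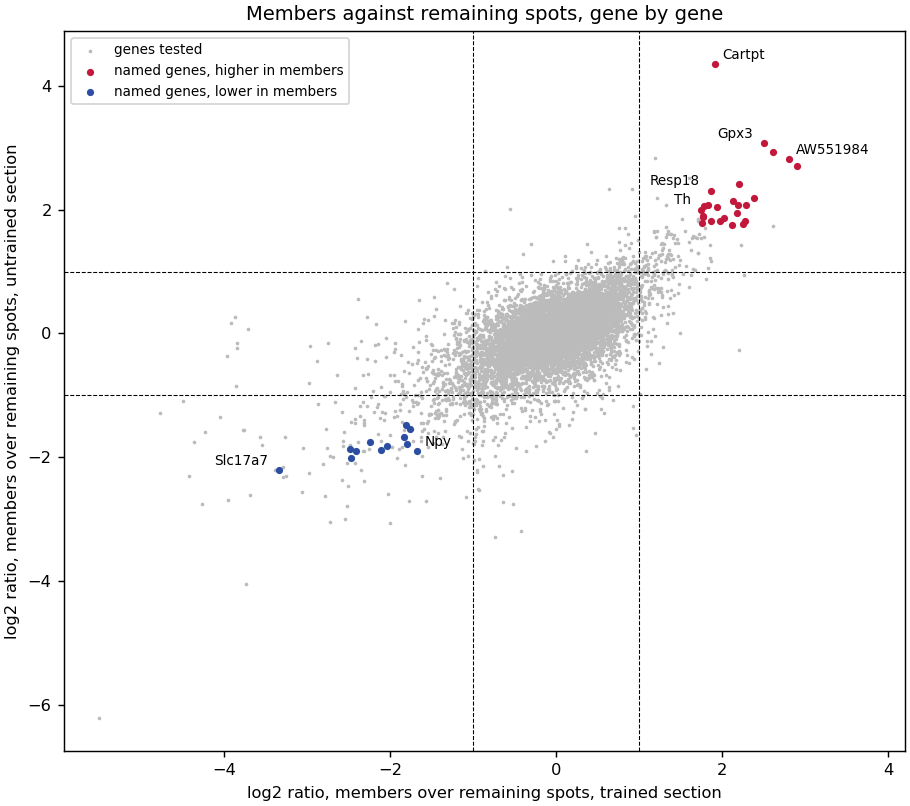
Log2 ratio of pooled CPM, members over remaining spots, in the trained section (horizontal axis) and the untrained section (vertical axis), with 1 point per tested gene and dashed lines at 2-fold. The 25 named genes in red lie above 2-fold on both axes, with Cartpt at 1.92 and 4.35, and the 12 named genes in blue lie below, with Slc17a7 at -3.34 and -2.21.

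Under the same limits, the 12 genes with the lowest ratios in both sections were led by Slc17a7. Slc17a7 (ENSMUSG00000070570, chr7:45163949-45176142), the vesicular glutamate transporter of cortex and hippocampus, was at 36.9 CPM in the members and 381 CPM in the remaining spots of the trained section, and at 99.6 and 461 CPM in the untrained section. Its log2 ratios were -3.34 (-3.90 to -2.88) and -2.21 (-2.41 to -2.02). Nrgn, a calmodulin-binding protein of dendrites, had -2.41 and -1.90, and Npy, neuropeptide Y, -1.68 and -1.90. Zbtb18, Adcy1, Mef2c, 2010300C02Rik, Rasgrp1, Ptk2b, Kalrn, Grin2a and Rprml completed the 12. Of these, Zbtb18 and Kalrn were under 2-fold after thinning, Mef2c on the left side and Rprml in both settings. Genes with fewer UMIs in the members could lie lower, such as Neurod6, a factor of pyramidal neurons, with 4 and 23 UMIs and log2 ratios of -3.70 and -2.61. Of 10 pyramidal neuron genes, 7 were at least 2-fold lower in both sections, beside 2.06% of all genes, and all 10 were below 0 in both, with medians of -2.36 and -1.94. The calls of Ddn, in 2 alternatives, and of Neurod2, on the left side, were lost.

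The imprinted genes were higher as a list, without the rule gene Dlk1. Of 35 listed genes 27 passed the minimum of 200 UMIs per section, 8 were at least 2-fold higher and 1, Cdkn1c, at least 2-fold lower in both sections, beside 1.17% and 2.06% of all genes. Their medians were 0.52 and 0.79 beside 0.01 and 0.04 for all genes, and 23 of 27 were above 0 in both. The higher genes were Peg3, Peg10, Ndn, Nnat, Nap1l5, Usp29, Impact and Plagl1, of which Plagl1 was under 2-fold with 60 members or without the far lateral patch of the untrained section, and Nnat was at 0.99 left of the axis. Cdkn1c rested on 2 and 12 UMIs in the members and was under 2-fold in 6 alternatives, down to -0.23. Usp29 and Peg3 start close to each other on chromosome 7, with log2 ratios of 1.79 and 1.70 for Usp29 and of 1.19 and 1.32 for Peg3, a zinc finger factor. Ndn, or necdin, was at 657 and 721 CPM in the members, with 1.46 (1.34 to 1.58) and 1.52 (1.45 to 1.60), and it shares an opposite-strand transcript, Gm32061, with Magel2. Magel2, a gene of the same Prader-Willi interval, fell below the minimum, with 27 and 51 UMIs in the members and log2 ratios of 2.88 (2.19 to 3.47) and 3.20 (2.71 to 3.66).

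Nap1l5, a nucleosome assembly protein, had the most UMIs of the higher imprinted genes, 3759 and 3240, at 4083.3 CPM in the trained members and 1508.1 CPM in the untrained members. Its ratio to the remaining spots was alike, with log2 values of 1.67 and 1.56, since the remaining spots differed in the same way, at 1281 and 512 CPM. Nap1l5 lies within Herc3 on the opposite strand and Nnat within Blcap, which bears on their counts only if counting ignored strand. Peg10, a retrotransposon-derived gene, had 39 and 29 UMIs, with log2 ratios of 2.19 and 2.08.

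The neuropeptide and granule genes divided. Of 28 neuropeptide genes 17 passed the minimum, 4 (Cartpt, Tac1, Trh and Pnoc) were at least 2-fold higher and 2 (Npy and Vip) at least 2-fold lower in both sections, beside 1.17% and 2.06% of all genes. Their medians were 0.64 and 0.94, beside 0.01 and 0.04 for all genes. Trh, thyrotropin-releasing hormone, had log2 ratios of 1.83 and 1.06, and Tac1, the precursor of substance P, 1.20 (0.973 to 1.41) and 2.83 (2.71 to 2.94). The Vip call rested on 2 and 10 UMIs in the members and was lost after thinning. The calls of Trh and Tac1 were lost in some settings, with a lowest log2 ratio of 0.94 for Trh and of 0.74 for Tac1, the latter with the 6 added genes alone. Of 13 granin and peptide processing genes, 3 (Scg2, Resp18 and Nnat) were at least 2-fold higher and none lower, beside 1.17% and 2.06% of all genes, with medians of 0.43 and 0.72 beside 0.01 and 0.04. Scg2, a granin of dense-core granules, was at 375 and 536 CPM in the members, with log2 ratios of 1.20 and 1.55. Chga, another granin, had 0.58 and 0.63, under 2-fold.

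The receptors and transcription factors of the region that passed the minimum moved little as lists. Of 50 hormone and peptide receptors 21 passed the minimum, with Gpr101 at least 2-fold higher and Nr3c2, Ramp3 and Cckbr at least 2-fold lower, beside 1.17% and 2.06% of all genes, and medians of -0.14 and 0.13. The lower calls were lost in 4, 8 and 6 alternatives. Of 28 hypothalamic transcription factors 8 passed, with Peg3 higher and Lhx2 lower, beside the same shares of all genes, and medians of 0.30 and -0.07. The Lhx2 call was lost with 240 members and after thinning. Genes under the minimum were outside these medians. Some were higher in both sections on few UMIs, such as Calcr (2.86 and 3.54), Tacr3 (1.98 and 3.06) and Otp (2.65 and 2.53). Others were not, such as Pgr (-0.08 and -0.28) and Sox3 (0.85 and -0.08). The GABA synthesis enzyme Gad2 was at least 2-fold higher in both sections, with 1.39 and 1.03, but under 2-fold in 6 alternatives, with 0.58 in the untrained section without the far lateral patch. The GABA transporter of vesicles, Slc32a1, had 1.19 and 0.87, and Gad1, the other synthesis enzyme, 0.17 and 0.00, near the remaining spots. Slc17a6, the glutamate transporter of hypothalamus and thalamus, had 0.27 and 0.90. Of 12 monoamine and acetylcholine genes 4 passed, with Th higher, beside 1.17% of all genes, and medians of 0.67 and 1.03. Slc32a1 overlaps Gm14205, Gad1 overlaps Gad1os and Penk overlaps A830012C17Rik on the opposite strand.

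**Figure D3:**
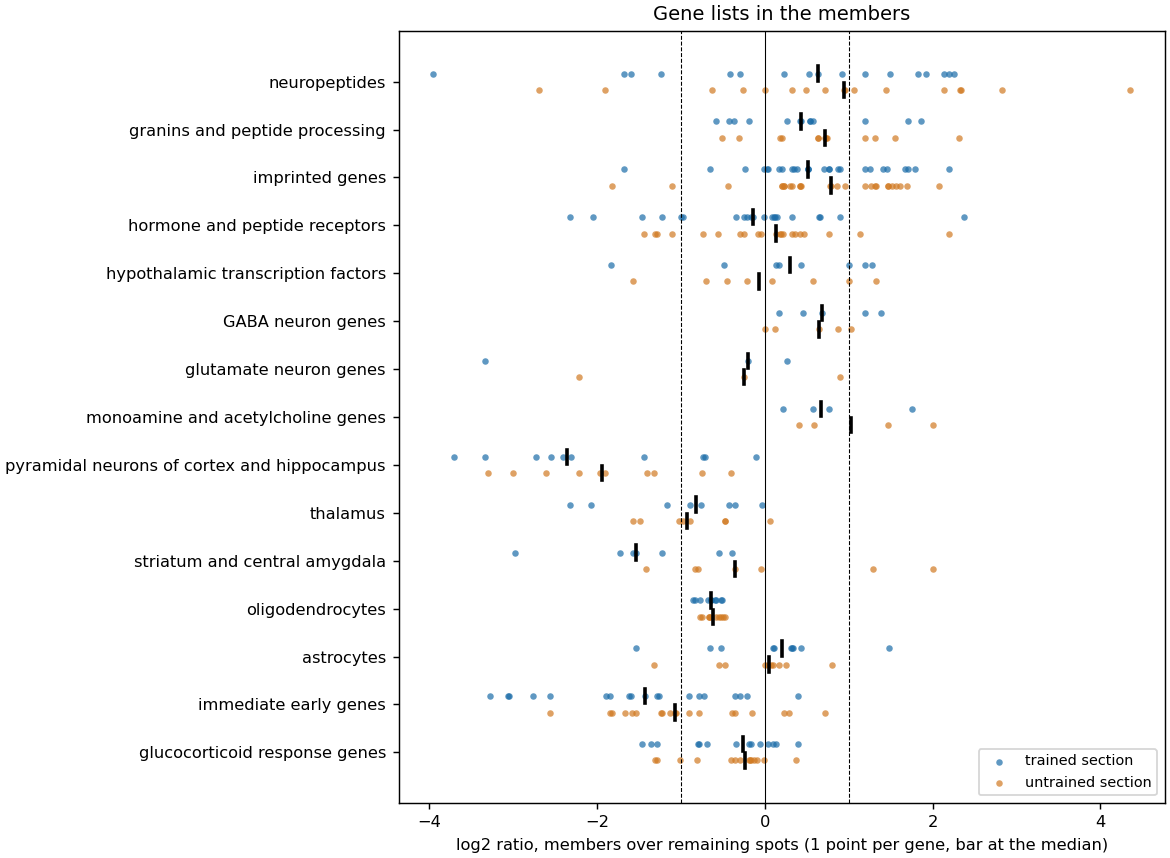
Log2 ratio of members over remaining spots for the genes of 15 lists, with 1 point per tested gene, blue for the trained and orange for the untrained section, and a black bar at the median. Imprinted genes have medians of 0.52 and 0.79, pyramidal neuron genes -2.36 and -1.94, and immediate early genes -1.43 and -1.07.

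Markers of other cells and regions were given their own lists. The 10 oligodendrocyte genes were all below 0 in both sections, with medians of -0.64 and -0.61 and none past 2-fold. Their summed level was 4926.3 and 4357.2 CPM in the members against 7494.5 and 6837.5 in the remaining spots. The 10 astrocyte genes had medians of 0.21 and 0.06, with Gfap at least 2-fold lower in both and Agt, angiotensinogen, at 1.48 and 0.80. Microglial genes had medians of -0.24 and -0.33, vessel and meningeal genes -0.36 and -0.46, tanycyte and ependymal genes -0.67 and -1.34, and blood genes -0.85 and -1.21. Choroid plexus genes had -0.95 and -2.60, thalamic genes -0.82 and -0.93, and genes of striatum and central amygdala -1.54 and -0.35. The summed level of the striatum and central amygdala list was 95.6 and 106 CPM in the members, against 302 and 127 CPM in the remaining spots. The 2 sections thus differed in this list mainly in the remaining spots. The 13 mitochondrially encoded genes had medians of -0.21 and -0.25, none past 2-fold, and mt-Nd6 had intervals that span 0 in both sections. Of 14 glucocorticoid response genes that passed, Hsd11b1 and Nr3c2 were at least 2-fold lower, with list medians of -0.27 and -0.24. The other genes of these lists called lower were Crym among tanycyte genes, Ttr and Kl of choroid plexus, Lef1 and Plekhg1 of thalamus, Scn4b of striatum and Hbb-bt of blood, beside 2.06% of all genes. Each of these lower calls, those of Gfap, Hsd11b1 and Nr3c2 included, was lost in 1 to 6 alternatives. Fewer cells of a type and less RNA per cell cannot be told apart in such spots.

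Immediate early genes, which neurons switch on within minutes of activity, were lower in the members. Of 22 listed genes 19 passed the minimum, 10 were at least 2-fold lower in both sections and none higher, beside 2.06% and 1.17% of all genes, with medians of -1.43 and -1.07 beside 0.01 and 0.04. Arc had 8 and 25 UMIs in the members, with log2 ratios of -3.06 (-4.37 to -2.17) and -2.56 (-3.21 to -2.02). Of the 10, Arc and Egr3 were past 2-fold under all alternatives, and 6 (Egr1, Egr4, Homer1, Ier2, Ier5 and Nr4a1) were not after thinning. Junb was under 2-fold in 7 alternatives and Nr4a3 in 6, and Ier5 and Ier2 were under 2-fold in other settings too. Egr1 had -1.89 and -1.24, while Fos had -0.21 (-0.869 to 0.338) and 0.23 (-0.151 to 0.577). The pyramidal neuron genes moved the same way in the same spots, and their part in this result was not tested.

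The members were next set beside 3 sets of spots chosen by rank or by the subtracted genes. Against the next 120 spots by rank in each section, none of 5573 genes was at least 2-fold higher in both sections and 1 was lower, Gfap, or 0.0179%, so no sharp border separated members from the next spots. Against the 40 Pmch and Hcrt spots per section, 5 of 3952 genes, or 0.127%, were at least 2-fold higher in both sections (Cartpt, Clip4, Gda, Ngb and Fut8) and none lower. All remaining spots of the trained section held 52 UMIs of Pmch and 15 of Hcrt, against 761 and 44 in the untrained section. The Pmch and Hcrt spots of the trained section were thus chosen on few UMIs, and the 2 sets are not alike. Against the 40 Oxt and Avp spots, 2 of 4138 genes, or 0.0483%, were higher (Gad1 and Gad2) and 2, or 0.0483%, lower (Rarres2 and Trh). Without the far lateral patch of the untrained section Gda was no longer higher than in the Pmch and Hcrt spots and Kat5 was, neither Gad1 nor Gad2 was higher than in the Oxt and Avp spots, and Npy was lower than in the next 120 spots beside Gfap. The genes named in these 3 comparisons had at least 50 UMIs over both sides in each section.

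The Oxt and Avp spots carried the leading genes at like levels. The median log2 ratio of the 25 leading genes, members over Oxt and Avp spots, was -0.13 and 0.12, against 0.92 and 0.42 over the Pmch and Hcrt spots and 0.53 and 0.63 over the next 120 spots. The Pmch and Hcrt spots of the trained section rest on few UMIs of those genes. Gad2 was at 433 CPM in the trained and 173 CPM in the untrained members against 174 and 81.7 CPM in the Oxt and Avp spots. The rule subtracted Oxt and Avp, so it bears on this contrast. Trh was at 287 and 46.0 CPM in the Oxt and Avp spots against 73.9 and 22.3 in the members.

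The members of the 2 sections were then compared with each other. Of 2618 genes with at least 200 UMIs over both sets, 39, or 1.49%, were at least 2-fold higher in the trained members and 27, or 1.03%, at least 2-fold lower. The median log2 ratio was 0.02 in the members and 0.08 in the remaining spots. The same ratio in the remaining spots followed that in the members with r = 0.853 across genes, and 29 of the 66 genes past 2-fold were past 2-fold in the same direction in the remaining spots. Only 5 of the 66 lay a further 2-fold beyond the ratio in the remaining spots.

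**Figure D4:**
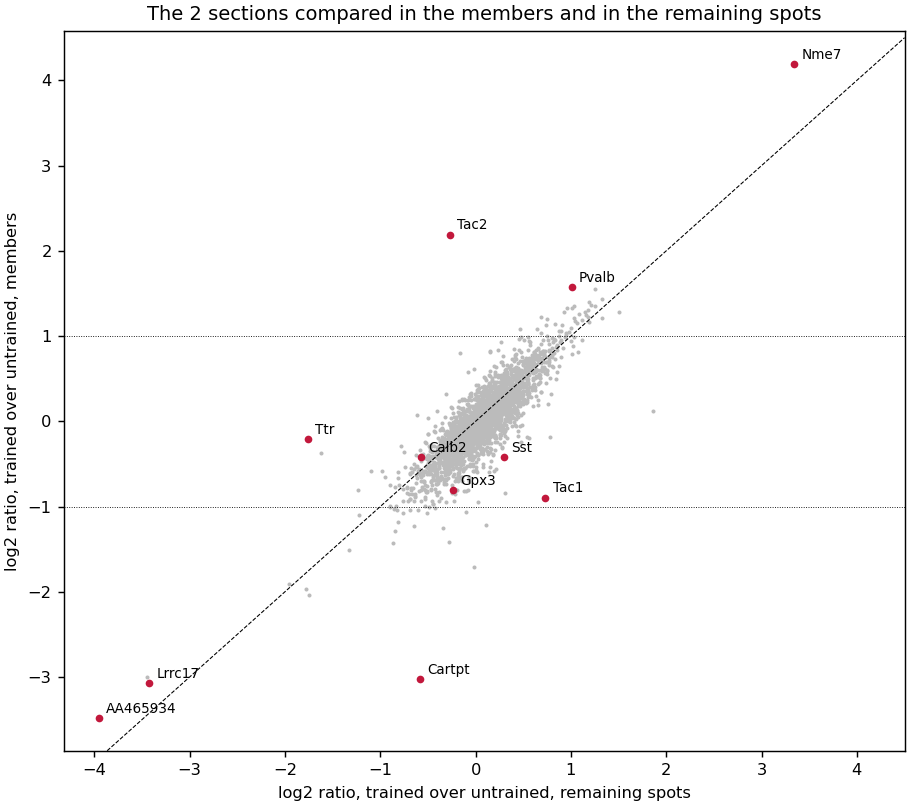
Log2 ratio of pooled CPM, trained over untrained, in the remaining spots (horizontal axis) and in the members (vertical axis), with 1 point per gene, the diagonal of equal ratios and dotted lines at 2-fold. Tac2 (2.19 in the members) lies far above the diagonal and Cartpt (-3.02) far below it, while Nme7 (4.19 and 3.34) differs in both sets of spots.

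Of the largest differences, those of Nme7, AA465934, Lrrc17 and Bc1 were past 2-fold in the remaining spots too, while those of Cartpt and Tac2 were not. Nme7, a kinase of the ciliary axoneme, was at 327 CPM in the trained and 17.7 CPM in the untrained members, a log2 ratio of 4.19 (3.72 to 4.74), beside 3.34 (3.27 to 3.42) in the remaining spots. AA465934 had -3.48 beside -3.95, Lrrc17 -3.08 beside -3.42, and Bc1, a neuronal noncoding RNA, -3.00 beside -3.45. Of the 5 GABA neuron genes 4 were at least 2-fold higher in the trained members, beside 1.49% of all genes compared, including Slc32a1 (1.33), Gad2 (1.32) and Gad1 (1.21), and these 3 had 1.01, 0.96 and 1.04 in the remaining spots.

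A smaller set differed more, or less, between the members than between the remaining spots. Tac2 (ENSMUSG00000025400, chr10:127724478-127731768, plus strand), the precursor of neurokinin B, was at 247 CPM from 227 UMIs in the trained members and at 54.0 CPM from 116 UMIs in the untrained members. The log2 ratio was 2.19 (1.86 to 2.53), against -0.27 (-0.359 to -0.185) in the remaining spots. Tac2 fell to 0.70 when the members were chosen by the 6 added genes alone. Adcyap1, the peptide PACAP, had -1.71 (-2.41 to -1.11) against -0.01 in the remaining spots, from 24 and 186 UMIs, and -0.33 with the 6 added genes alone. Penk, the enkephalin precursor, was level between the members, at 204 and 188 CPM, while the remaining spots stood at 252 and 69.2 CPM.

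Of listed genes that mark a level along the brain, 4 were picked for their difference between the 2 sets of members, which therefore supports nothing. Foxb1, a factor of the mammillary body, had 0 UMIs in the trained and 37 in the untrained members, at least 5.28-fold lower in the trained members when 0 is set to 3 UMIs. Nkx2-4 had 0 and 31 UMIs, at least 4.43-fold lower. Lhx8, a factor of ventral forebrain cholinergic neurons, had 15 and 1 UMIs, a log2 ratio of 4.59 (from 2.43 upward, on 1 UMI), and Fezf1 8 and 0, at least 6.22-fold higher. In the remaining spots the log2 ratios were -1.85 for Foxb1, -4.06 for Nkx2-4, 3.43 for Lhx8 and 2.60 for Fezf1. Other listed factors did not follow one pattern: Lhx5 had 0.86 in the members and 0.13 in the remaining spots, Sim1 -1.50 and 0.56, and Nkx2-1 -1.34 and 1.28, and all 3 intervals in the members spanned 0. All these genes were below the minimum for the comparison between sections, and level along the brain cannot be told apart from training here.

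Cartpt differed more between the members than between the remaining spots, by -2.44 on the log2 scale, and most of its UMIs in the untrained members lay in 12 spots. Cartpt (ENSMUSG00000021647, chr13:99898489-99901091, minus strand, 3 exons), the precursor of the appetite-suppressing CART peptide, was at 80.4 CPM from 74 UMIs in the trained members and at 658 CPM from 1413 UMIs in the untrained members. The log2 ratio was -3.02 (-3.39 to -2.69), against -0.59 (-0.723 to -0.454) in the remaining spots. A patch of 12 members of the untrained section, singled out after the map was seen as the patch farthest from the axis and centred 26.6 spot spacings right of the axis and 20 steps from the nearest Oxt and Avp spot, held 1230 of the 1413 UMIs, or 87.0%. All 12 spots had it, with 11 to 182 UMIs and a median of 100.

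Without that patch the difference between sections was -0.28, and the log2 ratio of untrained members over remaining spots was 1.62 in place of 4.35. Among the members left of the axis, which do not hold the patch, these values were -1.29 and 2.77. The patch stood at 4290.8 CPM of Cartpt against 98.3 CPM in the other 108 untrained members, a log2 ratio of 5.44 (5.22 to 5.68). Among 2466 genes compared, Lamp5 and Gda followed, both at 2.70, then Pnoc (2.50), Grik1 (2.44), C1ql1 (2.43), Icam5 (2.41) and Ecel1 (2.40). Tac1 was at 1130.2 CPM in the patch against 271 in the other members, and Slc32a1 at 345 against 108. Slc17a6 was lower there, at 45.3 against 178 CPM. Of the 6 added genes of the rule, on which the members were selected, Hap1 was at 858 against 388 CPM and Dlk1 at 6.98 against 101 CPM, and the intervals of the other 4 ratios spanned 0. It lay far from the axis and so outside what the label medial describes.

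**Figure D5:**
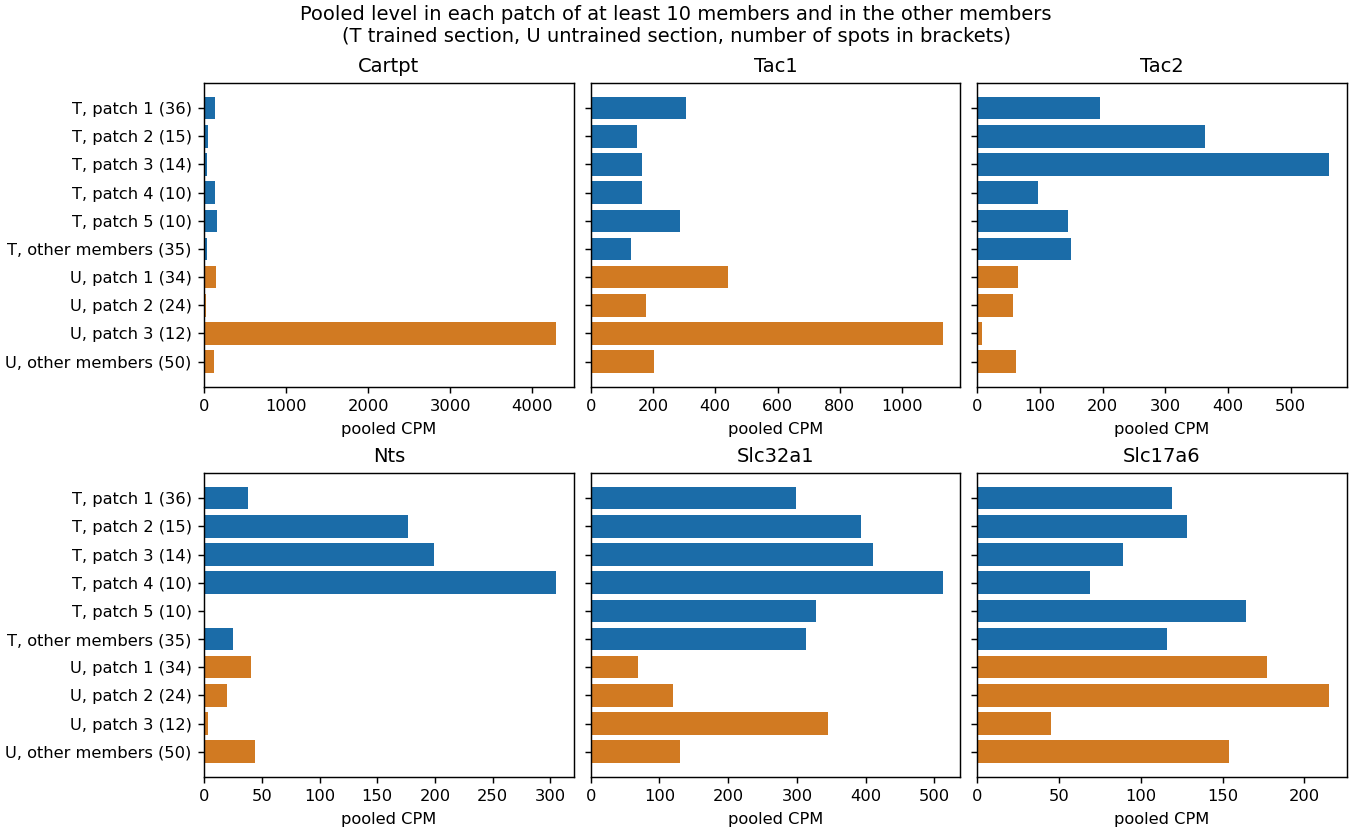
Pooled CPM of 6 genes in each connected patch of at least 10 members and in the members outside such patches, with the trained section in blue, the untrained section in orange and the number of spots in brackets. Cartpt and Tac1 peak in patch 3 of the untrained section, at 4290.8 and 1130.2 CPM, and Tac2 in patch 3 of the trained section, at 561 CPM.

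The other patches differed among themselves in peptides. Tac2 was highest in a patch of 14 spots right of the axis in the trained section, at 561 CPM, and in one of 15 spots on its left, at 364 CPM, and it ranged from 96.9 to 195 CPM in the other 3 patches of that section. Nts, neurotensin, reached 305 CPM in a patch of 10 spots and was at 0 in another of 10 spots, which allows up to 30.8 CPM at 3 UMIs. Trh reached 443 CPM in the same patch that was highest for Nts, and Oxt stood there at 540 CPM, although the rule subtracts it.

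In the untrained section the 2 patches near the axis differed in Foxb1, which was at 52.9 CPM in the patch of 34 spots and at 3.94 CPM in that of 24. Calb2 was at 750 CPM in the patch of 24 spots and at 69.8 CPM in the far lateral patch. Resp18 reached 2707.9 CPM in the patch of 34 spots and 1402.3 in that of 24. In the trained section Resp18 ran from 816 to 1550.3 CPM over the 5 patches, so the 2 sections overlapped in it.

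The authors' own score of spatial clustering was read for the same genes. Moran's I measures how far neighbouring spots share a level, with 0 for none. Baiap3 had 0.465 in the trained section (rank 26 of 20513 genes) and 0.432 in the untrained section (rank 75 of 21498), and Hap1 had 0.411 and 0.412. Resp18 ranked 17 and 20, with 0.519 and 0.520, and Gpx3 ranked 85 and 38, with 0.389 and 0.483. Cartpt had 0.219 and 0.368, and Gal 0.269 and 0.147. These scores were computed over the whole section and did not use the members.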

How the data were processed

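The 2 coronal brain sections were profiled with Visium, 1 section of 1 mouse per group. The authors aligned reads and counted UMIs with Space Ranger 2.0.0 on mm10, per the submitters' processing notes and the methods, and the deposited matrices hold raw counts per gene and spot. The authors' deposited tables of spatial enrichment also gave the score Moran's I. Positions of spots (unit other, deposited by the authors) gave the grid. Columns of authors' p-values were not used.

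All values came from scripts in Python 3.11.15 that used scipy 1.17.1, numpy 2.4.6 and pandas 2.3.3, with matplotlib 3.10.9 for the plots. UMIs were pooled over the spots of a set and scaled to a total of 1000000 (CPM). Log2 ratios used a pseudocount of 0.5 UMI and exact conditional binomial intervals at 95%, which cover counting error only, since UMIs of 1 section come from 1 tissue. Genes were compared with at least 200 UMIs in each section, or over the members of both sections, and called at 2-fold. Gene positions came from GENCODE vM21 on GRCm38/mm10, matched by Ensembl identifier. The computation was tested on simulated data.

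Named genes were the 25 highest and 12 lowest ratios shared by both sections with at least 20 UMIs on each side, the 10 highest and 10 lowest ratios between sections, the 6 highest and 6 lowest differences of that ratio from the remaining spots, and genes of 28 lists. Genes over-represented in the far lateral patch, the genes apart from the comparison spots and the pyramidal gene spots were chosen after the values were seen. The members and lists were chosen with earlier results of these data known. With 1 section per group, no test was run. Alternatives were 60 or 240 members, the 6 added genes alone, other background spots, means over spots, other totals, thinning to 2000 UMIs (seed 7), other minimums and pseudocounts, each side, and patches only.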

Additional observations from a re-analysis of the deposited data

Results flagged for a closer look

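Among the named or listed genes, the ratio of members to remaining spots went in opposite directions in the 2 sections for Tac2, Penk, Nme7, Pdyn, Sst, Zic1, Scg3 and Cpe. For each, both intervals of counting error were clear of 0. The share of such genes among all tested genes is not given, so their number carries no weight. In each the difference was not tested, since each group was 1 section. Tac2 had a log2 ratio of members over remaining spots of 2.20 in the trained section and -0.26 in the untrained section, a difference of 2.46 on the log2 scale. Its interval in the untrained section, -0.547 to -0.000578, only just cleared 0. Penk had -0.30 in the trained and 1.44 in the untrained section, a difference of -1.74. Its members stood at 204 and 188 CPM and the remaining spots at 252 and 69.2 CPM, so the remaining spots differed more than the members. Nme7 had 0.21 and -0.64, a difference of 0.85. Pdyn, the dynorphin precursor, had -1.24 from 15 UMIs and 0.72, a difference of -1.95, and Sst, somatostatin, -0.41 and 0.32, a difference of -0.72. Zic1, a transcription factor that overlaps Zic4 on the opposite strand, had 0.43 and -0.70, a difference of 1.13. The granule genes Scg3 and Cpe had -0.43 and 0.21, and -0.19 and 0.18, differences of -0.64 and -0.37. With the members chosen by the 6 added genes alone, Tac2 had 0.90 and 0.05. Some of these values changed sign in other settings, from -0.77 to 0.06 for Tac2 in the untrained section, from -1.11 to 0.10 for Penk and from -0.11 to 0.40 for Nme7 in the trained section. Sst ranged from -0.70 to 0.49 in the trained and from -0.17 to 0.45 in the untrained section, and Scg3 from -0.21 to 0.27 in the untrained section.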

How the results depend on the processing

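The 4 counts of genes past 2-fold (123 higher and 216 lower in the members of both sections, 39 higher and 27 lower in trained than in untrained members) moved by over 1.5 times under these settings. With a minimum of 50 UMIs per gene they were 241, 340, 186 and 153, and with the higher minimum of 1000 UMIs 52, 97, 9 and 7, where fewer genes were tested. With every spot thinned to 2000 UMIs the counts were 212 higher in the members, 109 higher and 78 lower between sections. A pseudocount of 5 UMI gave 203 higher and 98 lower in the members, since it weighs more in the smaller pool. The count lower in trained members was 42 with 60 members per section, 53 with the 6 added genes alone, 41 on the left side, 41 on the right side and 43 in patches only, and the count higher was 59 on the left side. Of 184 gene values called at 2-fold, under the 15 alternatives run on genes, and 13 list medians past 2-fold, under 17, 3 changed sign: the median of the dorsomedial list in the trained section was -0.11 with the 6 added genes alone, Ier2 in the untrained section was 0.16 after thinning, and Hbb-bs between sections was -0.07 on the right side. The cause was not tested. Of the values under 2-fold, 179 of 452 gene values and 16 of 49 list medians changed sign in at least 1 alternative. Of the listed or named genes at least 2-fold higher in the members of both sections, 31 of 36, and of those lower, 13 of 42 were so under every alternative run on genes. The settings that left out the far lateral patch, or barred Oxt and Avp spots, were chosen after seeing the data, and both kept the 4 counts within 1.5 times. No paired analysis was possible because each group was 1 section. Depth limited genes under 200 UMIs, among them most markers of single nuclei.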
